A study of Mus musculus with 7 samples.

Results

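The proteasome genes of the mouse sinoatrial node region were compared between a library with and a library without a Cre recombinase that removes floxed Baf250a. Members were the rows whose symbol starts with Psma to Psmg and a digit, with a completed comparison and a mean of at least 1 FPKM (read fragments scaled to transcript length and to library size) over the libraries. There were 49 matching rows among 15967, and 48 reached the minimum. The member closest above it was Psmb11, with a mean of 4.48 FPKM, and Psma8, an alpha subunit known from testis, fell short at 0.779 FPKM. One of the 48, Psmc3ip, encodes a recombination protein that shares only the symbol, so 47 proteasome genes remained among 13408 genes analysed. They comprised 14 constitutive core subunits, 3 immune and 1 thymic catalytic subunit, 17 cap subunits, 7 assembly chaperones, 4 activators and 1 inhibitor.

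The control library came from Sv129 mice of the genotype Baf250af/f at 3 weeks after birth, and the Cre library from mice of the same strain and age with the genotype Baf250af/f;Hcn4CreERT2, collected 6 days after tamoxifen. Both groups carry the floxed alleles. Baf250a is the protein of the gene Arid1a, a subunit of a chromatin remodelling complex, and Hcn4CreERT2 drives recombination from the gene of a pacemaker channel, whereas the RNA came from tissue labelled SAN and no sorting of cells is named. The labels name a 6-day control but state neither whether the control mice were given tamoxifen, nor how many animals or of which sex made up a library. With 1 library per genotype no difference has a replicate check and no test was run. The series title names a repression of the Nkx2.5-directed contractile programme by Baf250a. The other 5 of the 7 samples, a time series of 16 to 48 h with its control, were not analysed here.

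The proteasome is the protease that degrades most ubiquitin-tagged proteins. Its barrel-shaped core has outer rings of alpha and inner rings of beta subunits, with the active sites on the beta subunits Psmb5 (cuts after hydrophobic residues), Psmb6 (after acidic residues) and Psmb7 (after basic residues), and a cap of ATPases and scaffold proteins recognises and unfolds substrates. In lymphoid cells and after interferon-gamma these sites are replaced by Psmb8, Psmb9 and Psmb10, which favour peptides for MHC class I, and cells of the thymic cortex epithelium use Psmb11 in the place of Psmb5 or Psmb8 for the selection of CD8 T cells. Heart muscle normally contains mostly the constitutive form.

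Over all genes FPKM added up to 497407 without and 485189 with Cre, from an unknown number of reads. Arid1a had 34.9 FPKM in the control against 12.3 FPKM with Cre, a log2 ratio of -1.43. Xist, expressed in females, had 0.379 against 93.2 FPKM and the Y-linked Ddx3y 43.4 against 0.0739 FPKM, so sex and genotype cannot be told apart. Values below are FPKM, and each log2 ratio divides the Cre value by the control value after adding 1 to both, so that differences of weak genes are understated. Genes were counted as lower or higher at a 2-fold difference on that scale. The labelled tissue was checked against marker genes. The node markers Hcn4, Isl1, Shox2, Tbx3 and Tbx18 lay between 0.605 and 4.83 FPKM in the control and between 0.719 and 7.03 FPKM in the Cre library, while 6 heart muscle genes summed to 11096 and 16843 FPKM. Thymocyte markers summed to 2926 FPKM in the control against 7.22 FPKM with Cre, none listed at 0. At least 2-fold lower in the Cre library were 13 of 13, where 10.4% of all genes were. All but Tcf7 were below 1 FPKM with Cre and reached the minimum mean only through the control library. Cd3d, Cd3e, Ptcra, Rag2 and Themis were so low there that reaching the minimum fixed their call, which is no separate support. Lung genes (4) summed to 3844 FPKM in the control and 16453 FPKM with Cre.

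The sequence before the start site is shown for the genes on which the results turn, namely the occupants of the Psmb5 position, Psmb6 and the stretch that Psmb9 shares with Tap1. Sequences are from RefSeq on GRCm38.p6, 250 bases up to the start site and on the strand of the gene, except that 225 bases between the starts of Psmb9 and Tap1 are given for that pair. Capitals mark matches on either strand to 4 motifs, the antioxidant response element TGACNNNGC, the gamma-activated site TTCNNNGAA, the interferon-stimulated response element (GAAA, a gap of 2 bases and GAAA) and the CCAAT box. No matches of different motifs overlapped in these stretches.
Psmb5, chr14:54617996-54618245, minus strand: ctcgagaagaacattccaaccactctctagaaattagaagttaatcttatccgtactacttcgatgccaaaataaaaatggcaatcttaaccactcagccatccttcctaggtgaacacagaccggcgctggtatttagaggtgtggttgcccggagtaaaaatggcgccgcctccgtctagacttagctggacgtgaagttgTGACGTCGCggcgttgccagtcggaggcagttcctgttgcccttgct
Psmb8, chr17:34197945-34198194, plus strand: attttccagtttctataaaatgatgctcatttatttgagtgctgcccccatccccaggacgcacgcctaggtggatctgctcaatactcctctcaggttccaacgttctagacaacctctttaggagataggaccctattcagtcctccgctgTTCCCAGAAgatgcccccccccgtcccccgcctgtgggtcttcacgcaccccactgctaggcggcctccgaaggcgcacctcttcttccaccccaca
Psmb11, chr14:54625060-54625309, plus strand: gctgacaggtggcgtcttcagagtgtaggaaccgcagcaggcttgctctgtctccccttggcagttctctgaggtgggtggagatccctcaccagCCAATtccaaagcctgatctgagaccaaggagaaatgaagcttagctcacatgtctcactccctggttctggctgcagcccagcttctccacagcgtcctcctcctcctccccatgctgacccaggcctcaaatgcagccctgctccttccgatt
Psmb6, chr11:70525107-70525356, plus strand: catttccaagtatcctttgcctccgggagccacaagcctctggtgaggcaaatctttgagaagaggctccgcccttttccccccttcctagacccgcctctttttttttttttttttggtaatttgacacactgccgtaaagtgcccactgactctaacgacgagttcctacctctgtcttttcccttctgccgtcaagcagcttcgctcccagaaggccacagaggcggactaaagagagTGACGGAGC
Psmb9 to Tap1, chr17:34187331-34187555, minus strand: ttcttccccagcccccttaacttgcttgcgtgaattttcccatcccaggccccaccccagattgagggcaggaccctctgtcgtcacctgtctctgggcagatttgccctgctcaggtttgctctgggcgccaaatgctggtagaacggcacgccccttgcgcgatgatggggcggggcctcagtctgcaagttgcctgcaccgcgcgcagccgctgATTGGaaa
In Psmb8 the match is a gamma-activated site, TTCCCAGAA, whose first base lies 97 bases before the start. Psmb5 and Psmb6 each had a match to the antioxidant response element, TGACGTCGC from 47 and TGACGGAGC from 9 bases before the start. Psmb11 and the Psmb9 to Tap1 stretch held a CCAAT box and none of the other motifs. RefSeq windows were found for 40 of the 47 genes (43 windows of 300 bases, from 250 before to 50 after a start). The antioxidant element was in 13.95% of these and in 12.4% of all 32851 windows, the gamma-activated site in 6.98% and 8.30%, the interferon-stimulated element in 11.6% and 3.44%, and CCAAT in 32.6% and 37.4%. The 5 member windows with the interferon-stimulated element belonged to Psmb3, Psmd4, Psmd9, Psme1 and Psmg4, none of them an immune subunit. In the 250 bases before the start, Psmb5 had 15 CpG pairs, Psmb9 12, Psmb6 and Psmb8 10 each, Psmb11 4 and Psmb10 3, where the median over the same stretch was 14 for member windows and 6 for all windows. These matches describe letters and not binding.

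Most proteasome genes differed little between the libraries, and the exceptions were the immune subunits Psmb8 and Psmb9 and the thymic subunit Psmb11. These 3 of 47 genes (6.38%) were at least 2-fold lower in the Cre library, where the share over all genes was 10.4%, and 0 were at least 2-fold higher against 6.08% of all genes. After the upper quartiles of the libraries were made equal these background shares became 8.14% and 10.3%, and the counts of 3 and 0 were the same. The count of 3 is thus below the background share and describes which members differed, not an excess among them. One of the 3, Psmb11, reached the minimum only through the control library. The median log2 ratio was -0.35 over the 47 genes and -0.07 over all genes. Slightly lower values were general, since 46 of 47 genes were below 0 (54% of all genes), although this became 30 of 47 with that scaling, which moved the median of all genes from -0.07 to 0.14. The 43 genes outside the immune and thymic classes had a median of -0.30 with quartiles of -0.44 and -0.19, a narrow band beside the quartiles of all genes at -0.52 and 0.38. Their order by level was nearly the same in each library, with a Spearman rho of 0.986 across these 43 genes, which share the same pair of libraries. None of the 47 (0 of 47) was called significant in the authors' deposited table, where 0.564% of all rows were.

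**Figure D1:**
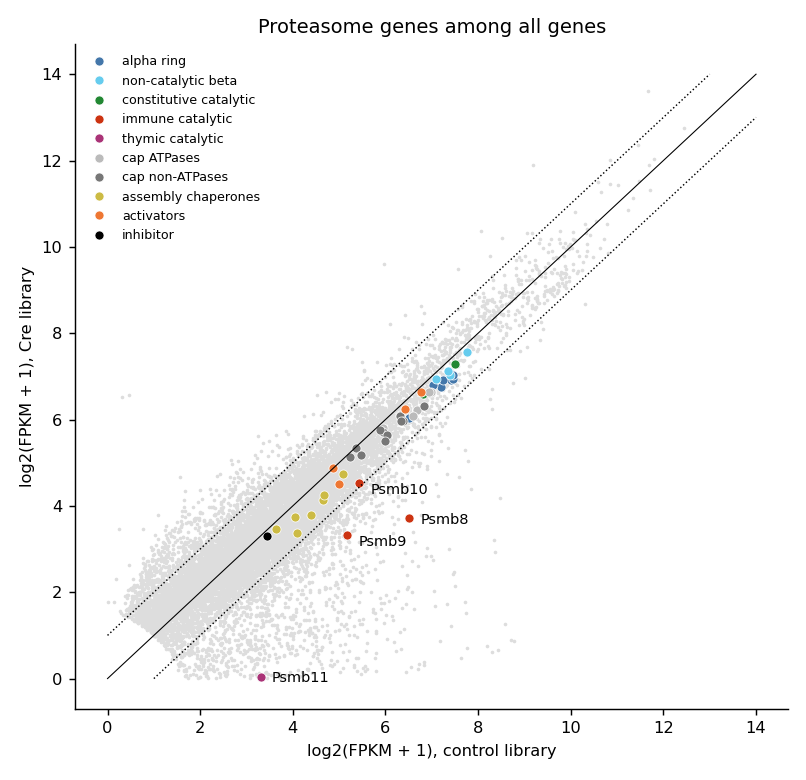
Expression of 47 proteasome genes (coloured by class) among all 13408 genes (grey) as log2(FPKM + 1), control library on the horizontal and Cre library on the vertical axis, with a solid line of equal values and dotted lines at 2-fold. Psmb8, Psmb9 and Psmb11 lie below the lower dotted line, Psmb10 lies just above it, and the other members follow the diagonal.

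The 7 measured subunits of the alpha ring, which gates the entrance of the core, were all below 0 and all short of 2-fold, and 7 of 7 remained below 0 with the same upper quartile, but 5 of 7 when ratios were centred on the core and cap subunits. Psma6 had the lowest ratio, at 175 FPKM in the control against 122 FPKM with Cre (-0.51), and Psma3 the highest, at 129.8 and 109.6 FPKM (-0.24). The most abundant in the control, Psma7, had 175.03 and 130.9 FPKM (-0.42). Psma1, Psma2, Psma4 and Psma5 lay between, with 169.7, 145 and 151 FPKM for the first 3 of them and 90.3 FPKM for Psma5 in the control, against 119.6, 107.7, 119.7 and 64.6 FPKM with Cre. The median of the ring was -0.43, or 774 FPKM summed over the ring in the Cre library against 1036 FPKM in the control.

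The non-catalytic beta subunits Psmb1 to Psmb4, which complete the inner rings, had a median of -0.21. Psmb1 had 167.7 FPKM in the control against 129.1 FPKM with Cre (-0.38), the lowest ratio of these 4. Psmb2 had 135.6 and 121.4 FPKM (-0.16), the highest ratio. Psmb4, the most abundant proteasome gene in both libraries, had 216 and 188 FPKM (-0.20), and Psmb3 had 162 and 139 FPKM. Psmb2 and Psmb4 turned to 0.08 and 0.03 with the same upper quartile, and the class turned as well, with 1 of 4 below 0 and a median of 0.03, so no direction is given for it.

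The constitutive catalytic subunits were close to equal. Psmb5 had 112 FPKM in the control against 95.0 FPKM with Cre, a log2 ratio of -0.23. Psmb6 had 107 and 98.5 FPKM, a log2 ratio of -0.12, and Psmb7 had 179 and 154 FPKM, a log2 ratio of -0.21. Their median of -0.21 became 0.02 with the same upper quartile, and the call as short of 2-fold did not depend on it. Levels of the 14 constitutive core subunits, the catalytic ones included, were alike within each library. They spanned 2.40-fold in the control and 2.91-fold in the Cre library, with coefficients of variation between genes of 22.3% and 23.7%. GENCODE M21 names 4 pseudogenes of Psmb5, Psmb6 and Psmb7, and how reads shared with such copies were counted is unknown.

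**Figure D2:**
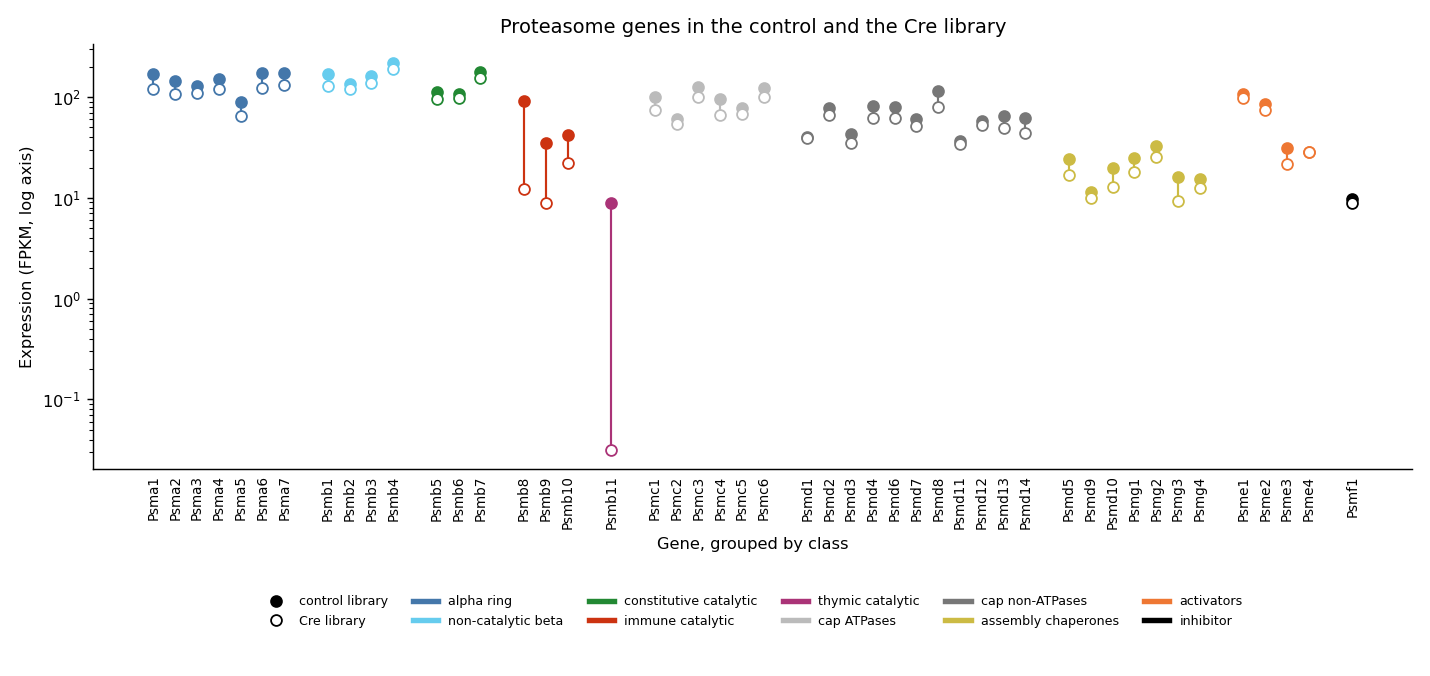
Expression in FPKM (log axis) of each of the 47 proteasome genes, grouped by class, in the control library (filled) and the Cre library (open). The core and cap pairs lie close together, and Psmb8 (90.5 and 12.1 FPKM) and Psmb11 (8.93 and 0.0316 FPKM) have the longest connecting lines.

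The immune catalytic subunits had unequal ratios, the lowest for Psmb8 and the highest for Psmb10. Psmb8, which takes the place of Psmb5, had 90.5 FPKM in the control against 12.1 FPKM with Cre, a log2 ratio of -2.80 and a 7.46-fold difference in FPKM (mm9 chromosome 17, 34335139 to 34338399). Among all genes 2.19% had a ratio as low. Psmb9, which takes the place of Psmb6, had 35.2 and 8.97 FPKM, a log2 ratio of -1.86 and a 3.92-fold difference (mm9 chromosome 17, 34319043 to 34324275). Psmb10, which takes the place of Psmb7, had 42.4 and 22.0 FPKM, and its log2 ratio of -0.92 falls short of 2-fold (mm9 chromosome 8, 108459627 to 108462292). The median of the 3 was -1.86, against -0.21 for the constitutive catalytic subunits and -0.34 for 28 core and cap subunits, whose lowest ratio was -0.52. In the authors' deposited table the p-values of Psmb8, Psmb9 and Psmb10 were 0.0035, 0.0537 and 0.260, with q-values of 0.173, 0.796 and 0.999. That table tests the libraries and not the genotypes.

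General, dendritic and B cell markers of white blood cells moved with the immune subunits, and macrophage markers mostly did not. Ptprc, Coro1a and Laptm5, expressed by white blood cells in general, summed to 576 FPKM in the control against 23.8 FPKM with Cre, and 3 of 3 were at least 2-fold lower. Their lowest value in the Cre library was 4.52 FPKM, for Ptprc, and none was listed at 0. Macrophage markers (5 with a value) summed to 139 and 122 FPKM, with a median log2 ratio of 0.01. Of these 5, Cd68 was at least 2-fold lower (-1.01), C1qa had -0.36, and Emr1, Csf1r and Mrc1 had 0.01, 0.35 and 0.37. Dendritic and B cell markers summed to 354 and 85.1 FPKM over 8 genes, with 3 of the 5 above the minimum at least 2-fold lower, namely Cd74, H2-Aa and H2-Ab1. Genes of dividing cells (Mki67, Top2a, Ccnb1 and Cdk1) summed to 335 FPKM in the control against 10.9 FPKM with Cre, and 4 of 4 were at least 2-fold lower. The part of these cells in the result was not tested, and in bulk tissue fewer cells of a type cannot be told apart from less RNA per cell.

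**Figure D3:**
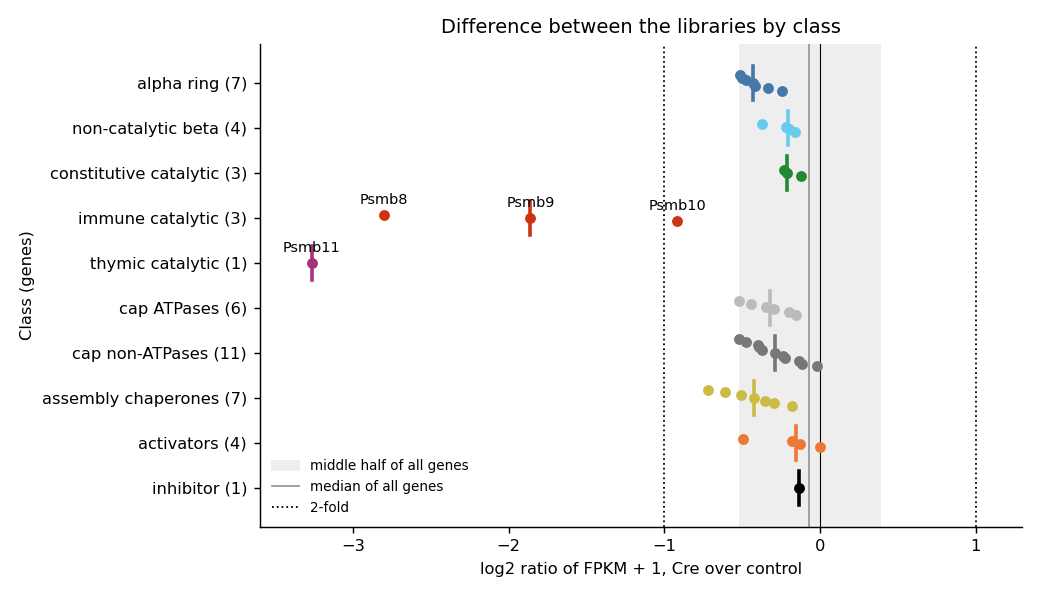
Log2 ratio of FPKM + 1, Cre over control, for each proteasome gene by class (points) with class medians (bars), the quartile range of all genes (grey band) and dotted lines at 2-fold. The immune and thymic subunits spread from -0.92 to -3.27, while the lowest other member lies at -0.72.

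At each catalytic position the constitutive gene supplied more of the transcript than its immune counterpart in both libraries, and the immune share was smaller in the Cre library. A share within a library does not depend on the scaling between libraries. At the Psmb5 position Psmb8 made up 44.7% of the sum of Psmb5 and Psmb8 in the control and 11.3% in the Cre library. At the Psmb6 position Psmb9 made up 24.7% and 8.35% of the sum. At the Psmb7 position Psmb10 made up 19.2% and 12.5%. The shares thus ranged from 19.2% to 44.7% in the control and only from 8.35% to 12.5% in the Cre library. Over all 3 positions the immune genes summed to 168 FPKM in the control against 43.1 FPKM with Cre, and the constitutive genes to 398 and 348 FPKM. The differences between the log2 ratios of partner and constitutive gene were -2.57 for Psmb8, -1.74 for Psmb9 and -0.70 for Psmb10. No interval can be given for these shares, since the reads behind them are unknown.

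**Figure D4:**
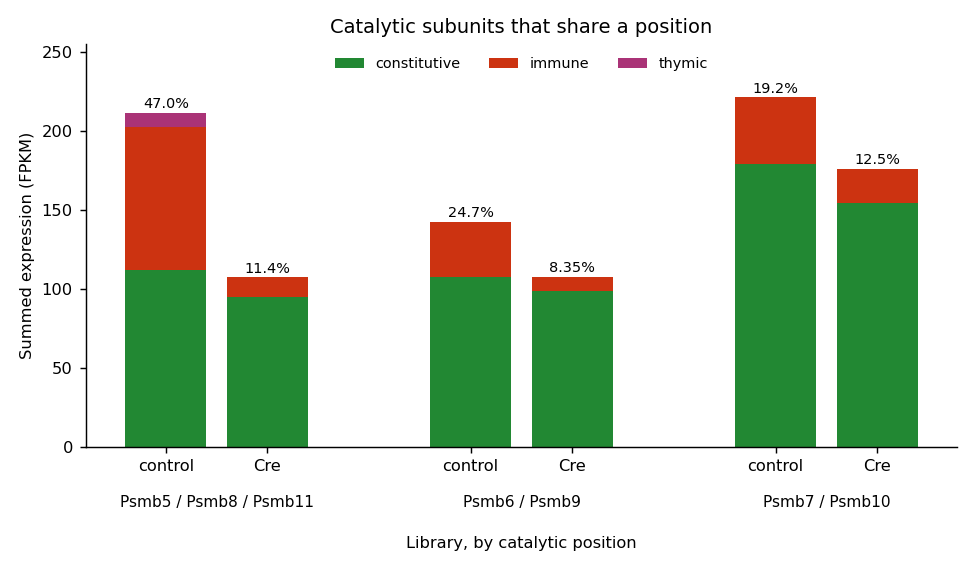
Summed FPKM of the genes that can occupy each catalytic position, stacked as constitutive (green), immune (red) and thymic (purple), in the control and the Cre library, with the immune plus thymic share of the sum above each bar. The share is 47.0% in the control and 11.4% in the Cre library at the Psmb5 position, 24.7% and 8.35% at the Psmb6 position, and 19.2% and 12.5% at the Psmb7 position.

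The thymic subunit Psmb11 had the lowest ratio of the proteasome genes at a pseudocount of 1, although Psmb8 and Psmb9 were lower with a pseudocount of 5, at -2.48 and -1.53. Psmb11 had 8.93 FPKM in the control against 0.0316 FPKM with Cre (mm9 chromosome 14, 55244146 to 55248393). The log2 ratio was -3.27 with a pseudocount of 1, -6.10 with 0.1 and -1.47 with 5, so its size rests on that choice. Psmb11 was at least 2-fold lower with each, but it reached the minimum mean of 1 FPKM only through the control library. At its Cre value, any gene that reaches this minimum is at least 2-fold lower with a pseudocount of 1. Membership thus fixed that call, which is no separate support. Only 76 of 15965 rows were as low in the Cre library, and the value there carries little weight. In the authors' deposited table its p-value was 0.0319 and its q-value 0.639. In the control Psmb11 was 12.5-fold below Psmb5 and 10.1-fold below Psmb8. Its neighbour Psmb5 lies 7314 bases away and had a log2 ratio of -0.23, while Cdh24, a cadherin gene 2435 bases away on the other side, had 13.1 FPKM in the control against 0.426 FPKM with Cre.

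Most thymic epithelium markers moved with Psmb11. Of 9 above the minimum 7 were at least 2-fold lower, where 10.4% of all genes were. Krt5 fell short (-0.93) and Dll4 had a positive ratio (0.11). All 10 with a value summed to 1194 FPKM in the control against 339 FPKM with Cre, none of them listed at 0. Foxn1, the master regulator of thymic epithelium, had 2.34 and 0.00596 FPKM, Ccl25, a chemokine that attracts thymocytes, had 161 and 2.29 FPKM, and the cortical protease Prss16 had 198 and 0.381 FPKM. Like Psmb11, Foxn1 and Prss16 reached the minimum only through the control library. For Foxn1, which is among the 7, this fixed the 2-fold call, so that call is no separate support. The Cre value of Foxn1 was the lowest of the 13408 genes analysed and carries little weight. Krt5, Krt8 and Ctsl, which other epithelia or tissues also express, had 6.95, 50.6 and 273 FPKM in the Cre library and made up most of the sum there. The part of these cells in the Psmb11 value was not tested.

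Psmb8 and Psmb9 lie in the class II region of the MHC on chromosome 17, 10864 bases apart on mm9, with Tap1 between them and Tap2 beyond. Tap1 and Tap2 form the transporter that carries peptides made by the proteasome into the endoplasmic reticulum. Tap1, whose start lies 226 bases from that of Psmb9, had 22.3 FPKM in the control against 7.87 FPKM with Cre, a log2 ratio of -1.39. Tap2 had 59.9 and 15.9 FPKM, a log2 ratio of -1.85. In a window reaching 100 kb beyond Psmb9 and Psmb8, chosen after values had been seen, 7 of the other 10 genes were at least 2-fold lower, where 10.4% of all genes were. These were Tap1, Tap2 and the class II genes H2-Oa, H2-DMa, H2-DMb2, H2-Ab1 and H2-Aa, the last 2 of which also count among the dendritic and B cell markers, whereas the chromatin gene Brd2 had 54.6 and 34.2 FPKM (-0.66). The window count took every row, and H2-Ob, at 1.41 and 0.475 FPKM, would fall below the minimum mean. The share of 10.4% covers only genes that reach that minimum. Psmb10 lies outside this region, and its neighbours Ctrl and Lcat were weak, at 0.469 and 1.46 FPKM in the control against 0.319 and 0.745 FPKM with Cre.

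The cap followed the core, with 17 of 17 subunits below 0 and none at 2-fold, and with the same upper quartile 4 of 6 ATPases and 7 of 11 other subunits stayed below 0. Among the 6 ATPases, which unfold substrates and open the core, Psmc4 had the lowest ratio, at 95.7 FPKM in the control against 66.5 FPKM with Cre (-0.52). Psmc2 had the highest, at 60.9 and 54.6 FPKM (-0.16), and Psmc3 was the most abundant, at 126 and 99.3 FPKM (-0.35). Psmc1, Psmc5 and Psmc6 had 101, 78.1 and 122 FPKM in the control against 74.0, 68.0 and 99.2 FPKM with Cre. The median of the ATPases was -0.32.

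The 11 non-ATPase cap subunits had a median of -0.29. Psmd8 was both the most abundant and the lowest in ratio, at 114 FPKM in the control against 79.0 FPKM with Cre (-0.52). Psmd1, the large scaffold at the cap base, had the highest ratio, at 39.98 and 39.4 FPKM (-0.02), and it turned to 0.21 with the same upper quartile. The ubiquitin receptor Psmd4 had 81.9 and 61.8 FPKM, and Psmd14, the enzyme that removes ubiquitin chains, had 62.2 and 44.4 FPKM. Psmd2, Psmd3, Psmd6, Psmd7, Psmd11, Psmd12 and Psmd13 ranged from -0.39 for Psmd13 to -0.12 for Psmd11. The rows of Psmd1, Psma4 and Psme1 share a locus with another row (Htr2b, AY074887 and Fam158a), so reads may have been divided between them.

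The activators, which bind the core in place of the cap, did not share the difference of the immune subunits. Psme1 and Psme2 form the ring that, like Psmb8 to Psmb10, is known to be induced by interferon-gamma. Psme1 had 108 FPKM in the control against 98.8 FPKM with Cre (-0.13), and Psme2 had 84.9 and 74.9 FPKM (-0.18), both positive with the same upper quartile (0.11 and 0.06). The ratio of Psme1 to Psme2 was 1.27 in the control and 1.32 in the Cre library. Psme3, a nuclear activator, had 31.1 and 21.8 FPKM (-0.49). Psme4, the large activator linked to histone turnover, had 28.27 and 28.30 FPKM (0.00), the only member not below 0. The inhibitor Psmf1 had 9.85 and 8.89 FPKM (-0.13).

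The assembly chaperones were weaker than the subunits they assemble, with 11.5 to 33.0 FPKM in the control and 9.38 to 25.5 FPKM in the Cre library. Their median log2 ratio was -0.43, or -0.20 with the same upper quartile, and none of 7 reached 2-fold. Psmg3, which helps to build the alpha ring, had the lowest ratio of the members outside the immune and thymic classes, at 16.1 and 9.38 FPKM (-0.72). Psmd9 had the highest, at 11.5 and 10.0 FPKM (-0.18), and Psmg2 was the most abundant, at 33.0 and 25.5 FPKM (-0.36). Psmd5, Psmd10, Psmg1 and Psmg4 ranged from -0.61 for Psmd10 to -0.29 for Psmg4. Psmc3ip, which acts in meiotic recombination and is no proteasome protein, had 13.3 and 6.81 FPKM (-0.88). Its row shares a locus with Mlx, which had a ratio of -0.90. Psma8, below the minimum, had 0.994 and 0.564 FPKM.

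The wider pathway was described with 39 genes, of which 37 had a value. At least 2-fold lower were 3 and higher were 0, all 3 in the list of peptide loading. The 3 of 37 make 8.11%, below the 10.4% of all genes, and 6.08% of all genes were at least 2-fold higher. In that list Tap1, Tap2 and Tapbpl were lower (3 of 11), Tapbpl, an editor of peptides on class I, at 17.5 FPKM in the control against 6.10 FPKM with Cre. The class I heavy chains H2-K1 and H2-D1, however, had 158 and 129 FPKM in the control against 126 and 115 FPKM with Cre, and B2m, their light chain, had 504 and 312 FPKM. The chaperones Calr and Pdia3 had positive ratios of 0.54 and 0.39. The list's median was -0.32.

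Of the interferon-gamma route 8 of 9 genes had a value, all 8 were below 0 and none reached 2-fold, with a median of -0.51. With the same upper quartile 7 of 8 were below 0, and with a pseudocount of 0.1 or with TPM 1 of 8 was at least 2-fold lower. Irf8, a factor of myeloid and dendritic cells, had the lowest ratio, at 7.61 and 3.40 FPKM (-0.97). Irf1, which switches on immune subunits, had 31.9 FPKM in the control against 24.2 FPKM with Cre. Among 14 genes of assembly, cap-associated enzymes and shuttle receptors 13 were below 0 and none reached 2-fold, and with the same upper quartile 8 were below 0. Pomp, the chaperone that joins the core rings, had 169 and 128 FPKM (-0.41), and Uchl5, a deubiquitinase of the cap, had 25.7 and 13.95 FPKM (-0.84). Of 4 genes of proteasome gene transcription none reached 2-fold and 2 were below 0, or 0 of 4 with the same upper quartile. Nfe2l1, the factor that raises proteasome genes after inhibition, had 41.6 and 56.3 FPKM (0.43), and its activating protease Ddi2 had 11.4 and 13.9 FPKM (0.26), while Nfe2l2 and Ngly1 had ratios of -0.10 and -0.02.

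**Figure D5:**
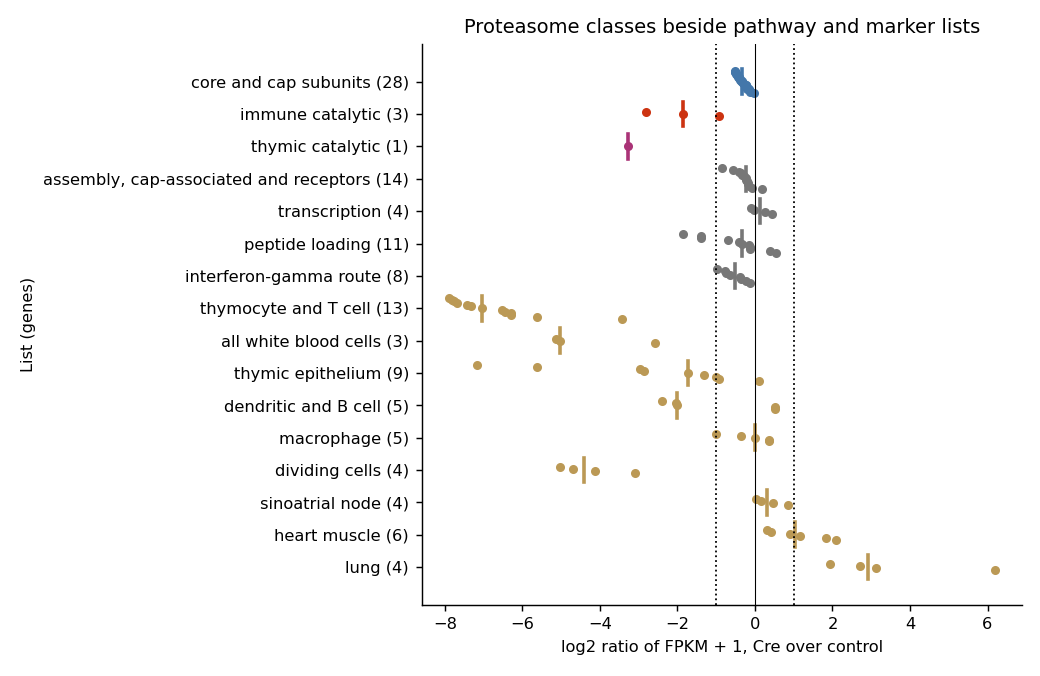
Log2 ratio of FPKM + 1, Cre over control, per gene (points) with list medians (bars) for proteasome classes, wider pathway lists (grey) and cell type marker lists (ochre), with dotted lines at 2-fold. The immune subunits have a median of -1.86, and the marker medians are -7.05 for thymocytes and T cells, -5.03 for all white blood cells, -4.42 for dividing cells, -2.01 for dendritic and B cells, -1.73 for thymic epithelium, 0.01 for macrophages, 0.31 for the node, 1.03 for heart muscle and 2.91 for lung, and the 28 core and cap subunits (median -0.34) lie near equality.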

How the data were processed

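The 7 samples form a time series and a day-6 pair, and the pair has values here. The submitters' processing notes name TopHat, Bowtie, Cufflinks and mm9. Their versions, the annotation, strand use and scaling were not given in the sources used here. In 1 table the authors deposited 1 value per library and gene. No header names the unit, and the deposited values were taken as FPKM from the table's Cufflinks layout. The column of the sample CTRL was taken as the day-6 control, whose label names this table, although the time-series control has a similar title. It also holds the authors' deposited p-value and q-value, their log2 fold change and a score, the test statistic. Of 15967 rows 2 have an uncompleted comparison and were left out.

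Genes whose mean reached 1 FPKM were kept (13408, with 11 small-RNA genes removed), and their log2 ratios of FPKM + 1 were taken with Python 3.11.15, numpy 2.4.6 and pandas 2.3.3. The functions were tested on simulated data. No test was run, since each genotype has 1 library. Depth is unknown. Members and lists were chosen with earlier results of these data known. Values are given for all catalytic subunits, activators and the inhibitor, and for the highest ratio, lowest ratio and highest control level of every other class, and additional members were named after their values were seen. Alternatives were 2 other pseudocounts, 2 other minimums, 3 other scalings and, added after seeing the data, centring on core and cap subunits.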

Additional observations from a re-analysis of the deposited data

How the results depend on the processing

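Psmb8 and Psmb9 stayed at least 2-fold lower under all 8 alternatives, with log2 ratios from -2.89 to -2.46 and from -1.96 to -1.52. Psmb11 did so under the 7 in which it was kept. The 2 other minimums change only which genes are kept, so a kept gene has the same ratio there by construction. With a minimum mean of 5 FPKM Psmb11 was not included, which left 2 members lower. Psmb11 reached the minimum of 1 FPKM only through the control library. Psmb10 stayed short of 2-fold, from -0.95 to -0.58, and no member was at least 2-fold higher under any of the 8. The median of the constitutive catalytic subunits changed sign, to 0.0229 with the same upper quartile, 0.0267 with the same median and 0.13 when centred on the core and cap subunits. Members below 0 numbered 30 of 47 with each of the first 2, so the direction of the small differences depends on the scaling, and 24 of 47 when centred, which by construction sets the core and cap median to 0. The immune median minus the constitutive median ranged from -1.75 to -1.32. Split over all genes, 1091 were lower and 1382 higher with the same upper quartile, against 1396 and 815 as deposited. Psmb11 itself moved from -3.27 to -6.10 with a pseudocount of 0.1, -1.47 with 5 and -4.15 with TPM. Of 200 values of the other single named genes under the alternatives 165 kept their sign and their side of 2-fold and moved by less than 1.5-fold. The 165 include the values under the 2 other minimums, which could not move. The other 35 changed sign, none of them at 2-fold. Depth is unknown, so no counting limit can be given. No paired analysis was possible because each genotype has 1 library.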
